A study of Rattus norvegicus with 6 samples.

Results

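The genes described here are the Rab GTPases and the proteins that switch them, in C6 rat glioma cells that overexpressed the water channel AQP1 and in C6 control cells. C6 is an established line from a chemically induced rat brain tumour. A gene was taken if its symbol started with Rab and a digit, Tbc1d, Rabgap, Rabgef, Rabep or Dennd, or was Rabif, Rin1, Rin2 or Rin3. This found 104 of the 12121 listed genes: 48 Rab GTPases, 32 GTPase-activating proteins (GAPs), 17 guanine nucleotide exchange factors (GEFs) and 7 effectors. Roles follow gene family and not measured activity. The rule used no measured value, and each of the 104 symbols stood for 1 gene.

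RNA was sequenced from 3 C6-AQP1 and 3 C6 control libraries, all of the same line. For C6-AQP1, the AQP1 sequence was placed in a pCDH vector with CMV and EF1 promoters that also carries the fluorescent protein CopGFP and a puromycin resistance gene. Neither the labels nor the methods say whether C6-AQP1 was 1 clone or a pool, whether the sequenced controls carried the empty vector, or whether the libraries of a group were grown separately. Clone, vector and AQP1 therefore cannot be told apart, and the p-values measure the spread between libraries, which may be technical.

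Rab proteins are small GTPases that mark the membranes of the cell and direct the budding, transport and fusion of vesicles. A GEF loads a Rab with GTP and so turns it on, and a GAP, usually through a TBC domain, speeds the hydrolysis of GTP and turns it off. DENN domain proteins are the largest group of Rab GEFs, and effectors are the proteins that bind a Rab while it is on. In glial and other migrating cells these genes are known for the recycling of integrins and for secretion.

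Every C6-AQP1 library held more Aqp1 (ENSRNOG00000011648) than every control, and reads of the vector and of the cells' own gene cannot be told apart in these counts. Its normalized CPM, the counts scaled to a library total of 1000000, were 1052, 1064 and 1057 in C6-AQP1 replicates 1, 2 and 3 and 347, 352 and 349 in the controls, a log2 fold change of 1.60 (SE 0.02, edgeR adjusted p = 5.8e-25). The listed counts summed to 19054244 to 52725870 per library, and replicate 1 was the shallowest of both groups. Of 8 markers of glia and C6 cells, 7 were listed. Vim, Nes, S100b, Gfap, Cnp and Cd44 rose and Id3 fell (log2 fold change -0.60), and the summed level of the 7, mostly from Vim and Nes, was 6774 to 6962 CPM in C6-AQP1 and 4931 to 5014 in the controls. Of 7 neuronal markers, 5 were listed and 4 of them rose, with summed levels of 319 to 325 CPM in C6-AQP1 and 121 to 124 in the controls. Most of that sum was Map2, with means of 254 CPM in C6-AQP1 and 81.8 in the controls. Syt1 and Snap25 were low, with means of 10.7 and 1.91 CPM in C6-AQP1 and 0.166 and 0.241 in the controls. Of 6 microglial markers none was listed, and of 5 endothelial and 4 epithelial markers 1 each was listed. Tek, the endothelial one, rose from 2.71 ± 0.480 CPM in the controls to 8.34 ± 0.349 in C6-AQP1 (SD, n = 3), a log2 fold change of 1.66 (SE 0.12, edgeR adjusted p = 4.2e-11), and Epcam did not pass.

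Most of the GEFs rose in C6-AQP1, while Rab GTPases went both ways. In bulk libraries a change in the cells present and a change in RNA per cell cannot be told apart. In the counts that follow, a gene rose or fell when the quasi-likelihood test of edgeR, adjusted over all 12121 genes, gave a p under 0.05, and a DEG also changed more than 2-fold. Of the 104 genes, 57 rose, 26 fell and 21 did not pass, so 79.8% passed, where 81.5% of all genes did (40.8% higher and 40.7% lower in C6-AQP1). The median log2 fold change was 0.15 over the 104 genes and 0.00 over all genes. The typical change was small, with a median absolute log2 fold change of 0.27 against 0.43 over all genes. Past 1.5-fold were 14 genes higher and 3 lower in C6-AQP1, together 16.3% where 34.8% of all genes passed that bar (19.8% higher and 15.0% lower). Only 3 of the 104 genes were DEGs, 2 higher and 1 lower, where 14.1% of all genes were (9.74% higher and 4.35% lower). In 83 genes, 79.8%, no C6-AQP1 library overlapped a control library, where 82.5% of all genes showed no overlap.

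Among the Rab GTPases, 22 of 48 rose and 16 fell, with a median log2 fold change of 0.07. Of the GAPs, 19 of 32 rose and 7 fell, with a median of 0.23. The GAPs were taken by family, so not all are active GAPs of a Rab. Among others they include Tbc1d23 and Tbc1d24, with an inactive TBC domain, and the non-catalytic Rab3gap2, which rose. The TSC subunit Tbc1d7, which fell, was also counted. The GEFs leaned furthest to one side, with 14 of 17 rising and 1 falling, and their median was 0.49. For these roles the share that rose was 45.8%, 59.4% and 82.4%, beside the 40.8% of all genes. Among the 7 effectors 2 rose and 2 fell, with a median of 0.03. Differences between the roles were not tested, because the genes are not replicates.

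**Figure D1:**
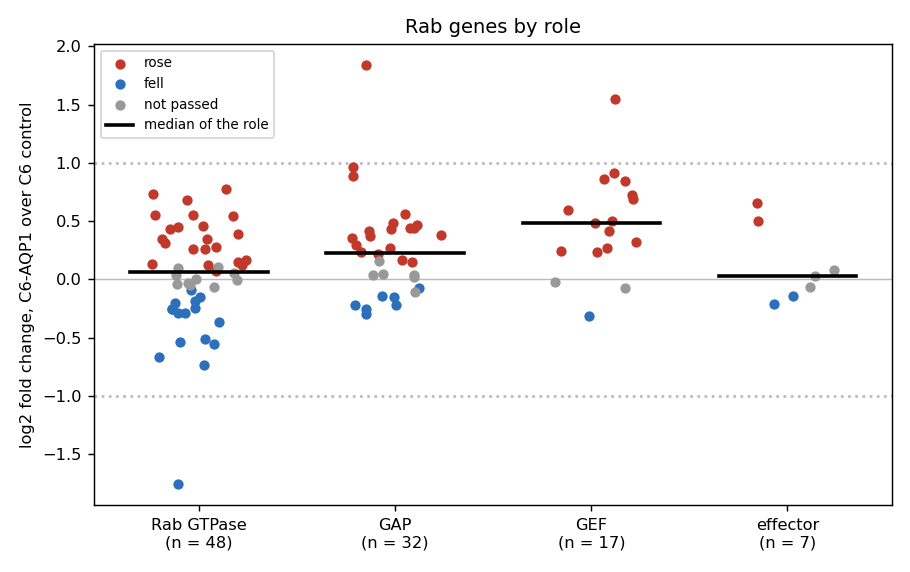
Log2 fold change of each of the 104 genes in C6-AQP1 over C6 control (y axis), by role (x axis), with dotted lines at a 2-fold change. Each point is a gene, coloured by whether it rose, fell or did not pass the test, and the black bars are the medians of 0.07 for Rab GTPases, 0.23 for GAPs, 0.49 for GEFs and 0.03 for effectors.

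Summed levels were compared between libraries within each role. The 48 Rab GTPases together had 4558, 4558 and 4559 normalized CPM in the C6-AQP1 libraries and 4598, 4577 and 4540 in the controls, so the C6-AQP1 libraries lay inside the range of the controls. The 17 GEFs had 1467, 1528 and 1501 CPM in C6-AQP1 and 1134, 1125 and 1135 in the controls. A large part came from Dennd5a alone, with 643, 657 and 642 CPM in C6-AQP1 and 549, 550 and 551 in the controls. For the 32 GAPs the sums were 1720, 1738 and 1747 CPM in C6-AQP1 and 1554, 1551 and 1556 in the controls. GEF and GAP sums did not overlap between the groups, while those of the GTPases did. Long transcripts give more counts, so these sums compare libraries and not roles with each other.

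Gene size moved with these results. Over all genes with a known span in the genome (10986 genes, spans from RefSeq for the GRCr8 assembly), cut at the quartiles of span, 26.9% of the shortest group rose and 61.3% of the longest group did. The median span was 24.4 kb for Rab GTPases, 73.8 kb for GAPs and 66.0 kb for GEFs, against 25.0 kb for all genes. In the longest group, 9 of 9 GEFs, 12 of 18 GAPs and 5 of 10 Rab GTPases rose. In the next longest group, where 44.4% of all genes rose, 4 of 5 GEFs, 5 of 7 GAPs and 6 of 12 Rab GTPases did. The group below it, where 35.0% of all genes rose, held 1 rising GEF of 3, no rising GAP of 5 and 8 rising Rab GTPases of 20. Spearman's rho between span and log2 fold change was 0.29 across the 10986 genes, 0.30 across 31 GAPs, 0.39 across 17 GEFs and 0.00 across 48 Rab GTPases, given as a description since genes of the same libraries are not independent. The part of gene size in the difference between roles was not tested.

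**Figure D2:**
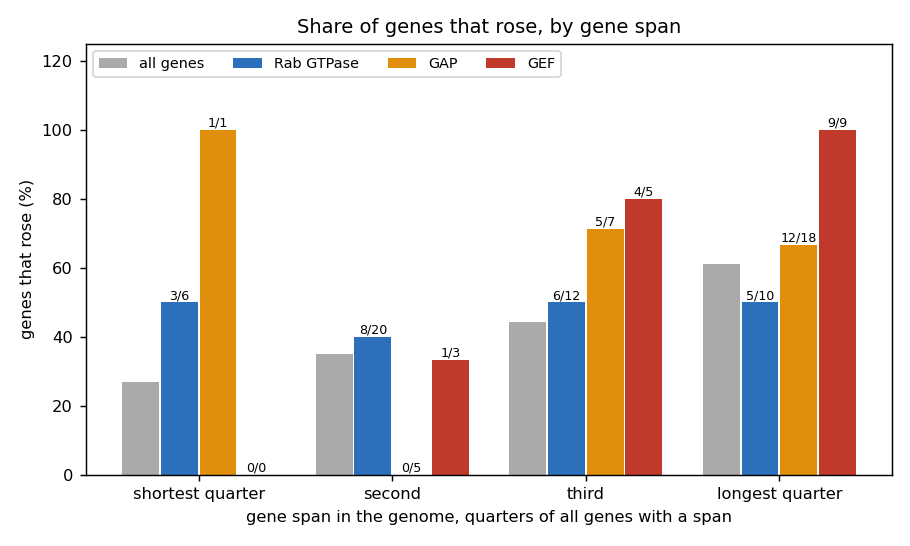
Share of genes that rose in C6-AQP1 (y axis, percent) in each quartile group of gene span (x axis), for all genes and for Rab GTPases, GAPs and GEFs, with the number that rose over the number of genes above the bars. The share over all genes climbs from 26.9% to 61.3%, while 3 of 6, 8 of 20, 6 of 12 and 5 of 10 Rab GTPases rose from the shortest group to the longest.

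Rab GTPases of the ER and Golgi went both ways, with 6 of 11 rising and 4 falling. That was 54.5% and 36.4%, where 40.8% of all genes rose and 40.7% fell. Rab1a and Rab1b, which drive traffic from the ER to the Golgi, were both lower in C6-AQP1. Rab1b had 86.7, 83.6 and 85.4 CPM in the C6-AQP1 libraries and 141, 142 and 140.3 in the controls, a log2 fold change of -0.73 (SE 0.03, edgeR adjusted p = 1.5e-16). The 3 C6-AQP1 libraries sat close together and far under the controls. Rab1a had 234, 234 and 232 CPM against 308, 298 and 297, a log2 fold change of -0.37 (SE 0.02, edgeR adjusted p = 7.3e-13). Rab2a, of retrieval from the Golgi, and Rab18, of ER tubules and lipid droplets, also fell, with log2 fold changes of -0.29 and -0.15.

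The Rabs of this compartment that rose serve the Golgi itself. Rab33b, a Golgi Rab that binds the autophagy protein Atg16l1, had 43.5, 43.3 and 45.5 CPM in C6-AQP1 and 26.9, 25.9 and 27.2 in the controls, a log2 fold change of 0.73 (SE 0.04, edgeR adjusted p = 5.6e-13). Its groups were apart by many times the spread within them. Rab6b, the form of Rab6 that is enriched in brain, had a log2 fold change of 0.56 (SE 0.03), more than the 0.15 (SE 0.02) of the widely expressed Rab6a. Rab36, Rab43 and Rab30 rose by 0.56, 0.43 and 0.35 on the log2 scale, the first from only 2.80 ± 0.581 CPM in the controls (SD, n = 3).

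No Rab GTPase of recycling endosomes rose, except that Rab14 did where libraries were scaled by their totals alone (log2 fold change 0.06, edgeR adjusted p = 0.0274). Of 8, 5 fell and 3 did not pass, with a median log2 fold change of -0.27, where 40.7% of all genes fell. Recycling endosomes return receptors and integrins to the cell surface. Rab4b, of the fast route, had 23.5, 23.0 and 22.2 CPM in C6-AQP1 and 36.3, 35.5 and 37.0 in the controls, a log2 fold change of -0.67 (SE 0.04, edgeR adjusted p = 8.5e-12). Rab11b, of the slow route, had 65.5, 71.6 and 71.5 CPM against 96.9, 102 and 100.0, a log2 fold change of -0.51 (SE 0.03, edgeR adjusted p = 5.7e-12). For both genes the lowest control stood well above the highest C6-AQP1 library. Rab35, which works in fast recycling and actin control, had 94.0, 101 and 102 CPM against 119.6, 121 and 123, a log2 fold change of -0.29 (SE 0.03, edgeR adjusted p = 1.3e-08). Rab4a also fell, with a log2 fold change of -0.25 (SE 0.06). The 3 others, Rab11a, Rab14 and Rab12, had log2 fold changes of -0.05, 0.00 and 0.04, and Rab11a passed only without C6-AQP1 replicate 1 (edgeR adjusted p = 0.0171). Rab15, a Rab of neuronal recycling endosomes, was near the floor of the list at 1.62 ± 0.279 CPM in C6-AQP1 and 2.504 ± 0.785 in the controls (SD, n = 3). Its log2 fold change of -0.55 (SE 0.21, edgeR adjusted p = 0.021) depended on single libraries, since the adjusted p was 0.136 without C6 control replicate 1 and 0.11 without C6-AQP1 replicate 2. The 8 genes summed to 577, 573 and 579 CPM in C6-AQP1 and 651, 651 and 646 in the controls.

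Early endosome Rabs spanned the narrowest range of the 6 compartments. They fuse and sort the vesicles that arrive from the plasma membrane. Of 7, 4 rose and 1 fell, where 40.8% of all genes rose and 40.7% fell. All 7 lay between -0.18 and 0.26 on the log2 scale. Rab31, which sorts cargo from the Golgi to endosomes, had 339.6, 347 and 344 CPM in C6-AQP1 and 286, 289.5 and 286 in the controls, a log2 fold change of 0.26 (SE 0.02, edgeR adjusted p = 9e-11). Rab5c fell, with 299, 317 and 312 CPM against 347, 354 and 354, while its relative Rab5b rose, with a log2 fold change of 0.12. Rab5a did not pass, at 48.3, 49.2 and 49.5 CPM against 50.1, 52.1 and 49.0, and its groups overlapped. Rab22a had a log2 fold change of 0.13. The smallest called change of this compartment was that of Rab21, a Rab of integrin endocytosis, at 0.07 (edgeR adjusted p = 0.026), and the call was lost with DESeq2 (adjusted p = 0.0743) and without C6 control replicate 3 (0.0675), C6-AQP1 replicate 1 (0.0737) or C6-AQP1 replicate 3 (0.0544).

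Of the Rabs of late endosomes and lysosomes, 4 of 8 rose and 2 fell, beside 40.8% and 40.7% of all genes. Rab32, which serves lysosome-related organelles and mitochondria, changed most. It had 41.3, 44.3 and 41.6 CPM in C6-AQP1 and 24.5, 24.9 and 24.9 in the controls, a log2 fold change of 0.78 (SE 0.04, edgeR adjusted p = 3.2e-13). Rab38, its close relative, had 28.8, 27.1 and 25.8 CPM against 25.2, 24.6 and 25.6 and did not pass (edgeR adjusted p = 0.054), though its groups did not overlap. It passed without C6 control replicate 3 (edgeR adjusted p = 0.0469) and without C6-AQP1 replicate 3 (0.0219). Hps1 and Hps4, which together form the GEF of Rab32 and Rab38, both rose, with log2 fold changes of 0.88 and 1.12. Rab7a, the central Rab of lysosome fusion, fell slightly, from 422 ± 3.96 CPM in the controls to 395 ± 6.68 in C6-AQP1 (SD, n = 3), a log2 fold change of -0.09 (SE 0.02, edgeR adjusted p = 0.00017). That call was lost with library totals alone (edgeR adjusted p = 0.071). Rab7b, of the route from late endosomes to the Golgi, rose by 0.46 on the log2 scale, and so did Rab9a of the same route by 0.26 and Rab29, an activator of the kinase Lrrk2, by 0.31.

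**Figure D3:**
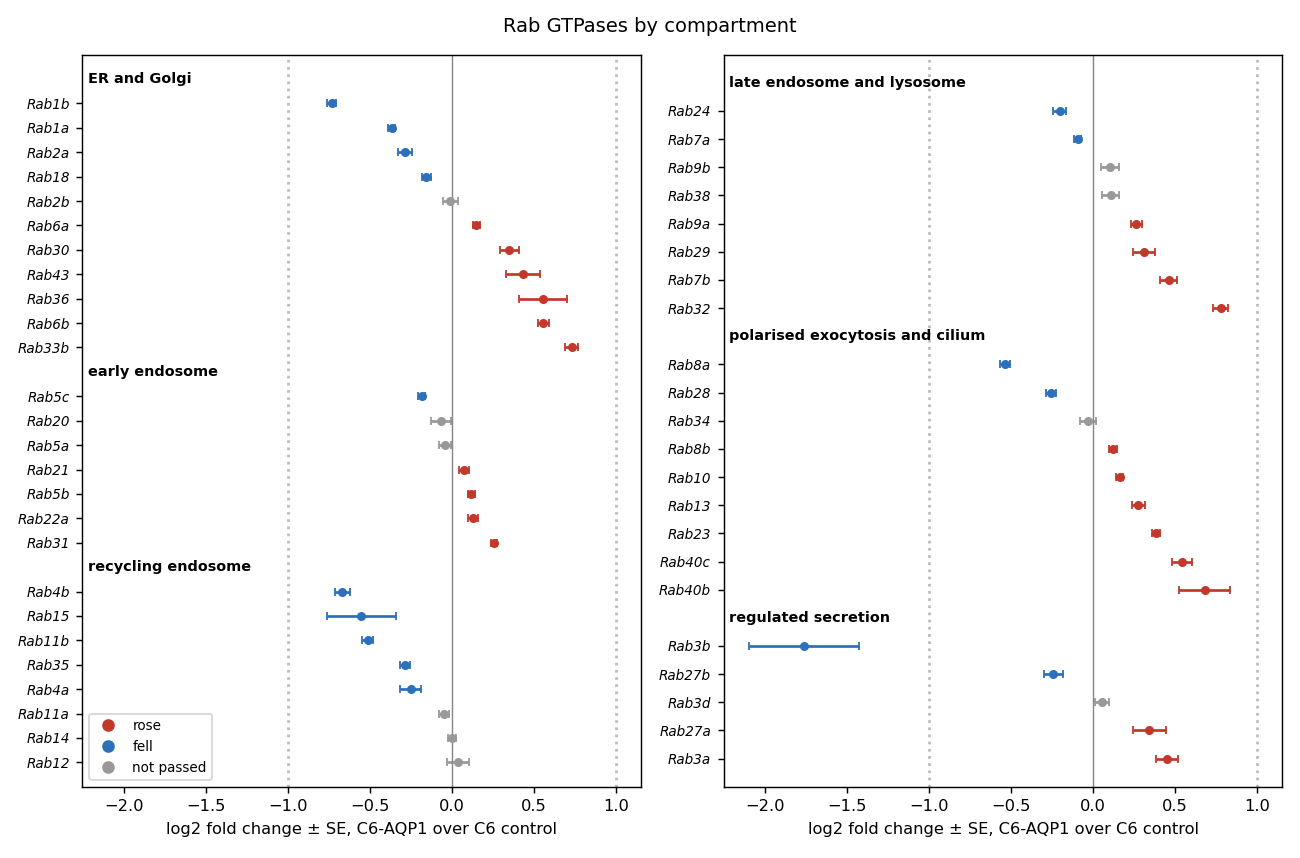
Log2 fold change with its standard error (x axis) of the 48 Rab GTPases, sorted within 6 compartments (y axis), with dotted lines at a 2-fold change. All called members of the recycling endosome lie left of 0, from -0.67 for Rab4b to -0.25 for Rab4a, while the other compartments hold genes on both sides.

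Among 9 Rabs of polarised exocytosis and the cilium, 6 rose and 2 fell, beside 40.8% and 40.7% of all genes. The paralogs Rab8a and Rab8b, which carry vesicles to the surface and to the growing cilium, went opposite ways. Rab8a had 58.6, 62.6 and 63.4 CPM in C6-AQP1 and 89.1, 89.8 and 89.8 in the controls, a log2 fold change of -0.54 (SE 0.03, edgeR adjusted p = 1.1e-12). Rab8b had 151, 144 and 146 CPM against 134, 135 and 136, a log2 fold change of 0.12 (SE 0.03, edgeR adjusted p = 0.00019). Neither gene showed an overlap between groups. Within each library, Rab8a took 27.9% to 30.3% of the counts of the pair in C6-AQP1 and at least 39.7% in each control. Their promoter windows from RefSeq (250 bases before to 50 after the start, GRCr8 assembly) are shown because the pair moved apart. Both are printed 5′ to 3′ on the strand of the gene, and capitals mark GGGAGG, the core of the MAZ motif, or its reverse complement.
Rab8a, chr16:17709363-17709662, minus strand: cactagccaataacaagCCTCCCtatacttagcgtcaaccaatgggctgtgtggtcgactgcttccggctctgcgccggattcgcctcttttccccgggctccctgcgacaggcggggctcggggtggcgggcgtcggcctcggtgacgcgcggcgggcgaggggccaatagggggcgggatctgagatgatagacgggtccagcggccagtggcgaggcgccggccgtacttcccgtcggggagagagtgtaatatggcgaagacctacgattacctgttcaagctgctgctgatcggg
Rab8b, chr8:76417499-76417798, minus strand: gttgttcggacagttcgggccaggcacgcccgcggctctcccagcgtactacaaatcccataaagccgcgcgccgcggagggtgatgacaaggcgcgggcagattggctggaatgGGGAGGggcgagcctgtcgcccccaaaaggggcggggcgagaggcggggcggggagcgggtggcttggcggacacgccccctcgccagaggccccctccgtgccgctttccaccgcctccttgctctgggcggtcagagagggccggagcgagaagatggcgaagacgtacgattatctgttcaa

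Each of the 2 windows held the letters once, so their presence did not separate the gene that fell from the gene that rose. Rab23, a brake on Hedgehog signalling, rose, with 175 ± 0.903 CPM in C6-AQP1 and 134 ± 3.85 in the controls (SD, n = 3) and a log2 fold change of 0.39 (SE 0.03, edgeR adjusted p = 5.5e-12). Rab40b and Rab40c, SOCS-box Rabs that act with Cullin-5 ubiquitin ligases, had log2 fold changes of 0.68 and 0.54. Rab13, of cell junctions and migration, had 0.28, and Rab10, of GLUT4 traffic, 0.16. Rab28, a cilium Rab, fell by 0.26 on the log2 scale.

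The 5 listed Rabs of regulated secretion split, with 2 rising and 2 falling. These shares were close to those of all genes, of which 40.8% rose and 40.7% fell. Rab3b, of secretory vesicles, was the only DEG among the 48 GTPases. It had 3, 13 and 10 counts in C6-AQP1 replicates 1, 2 and 3 and 22, 35 and 49 in the controls, or 0.154, 0.315 and 0.236 against 0.987, 0.677 and 0.958 CPM. The groups did not overlap, and the log2 fold change of -1.76 (SE 0.34, edgeR adjusted p = 6.3e-05) had a large error at so few counts. Rab3b may have been listed through the controls alone, a limit that favours large fold changes. Rab3a, the main Rab of synaptic vesicles, rose, with 18.2 ± 1.04 CPM in C6-AQP1 and 13.5 ± 0.794 in the controls (SD, n = 3) and a log2 fold change of 0.45 (SE 0.07, edgeR adjusted p = 2.2e-06). Rab27a and Rab27b, which dock secretory granules and exosome carriers, crossed. Rab27a had 7.58, 7.97 and 8.16 CPM in C6-AQP1 and 6.51, 5.51 and 6.81 in the controls, a log2 fold change of 0.34 (SE 0.10, edgeR adjusted p = 0.0034). Rab27b had 18.6, 18.6 and 17.2 CPM against 21.9, 20.7 and 21.7, a log2 fold change of -0.24 (SE 0.06, edgeR adjusted p = 0.00055). Rab27a thus took 28.9% to 32.1% of the counts of the pair in C6-AQP1 and 21.0% to 23.9% in the controls. Of the 5 listed neuronal markers, 4 rose in the same libraries and Tubb3 did not pass, and their part in the changes of secretory Rabs was not tested.

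Proportions also shifted within other sets of paralogs, with the limit that RSEM estimates how reads shared by close copies divide between them. Rab7a fell while Rab7b rose, Rab5c fell while Rab5b rose, and Rab3b fell while Rab3a rose. Rab1b took 26.3% to 27.0% of the Rab1 counts in C6-AQP1 and 31.5% to 32.4% in the controls. Rab11b took 28.4% to 31.5% of the Rab11 counts in C6-AQP1 and 36.1% to 38.7% in the controls. For Rab6b the shares were 12.2% to 13.1% in C6-AQP1 and 9.52% to 10.0% in the controls, and for Rab7b of the Rab7 counts 7.36% to 8.35% and 5.29% to 5.47%. Each of these ranges was apart between the groups.

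**Figure D4:**
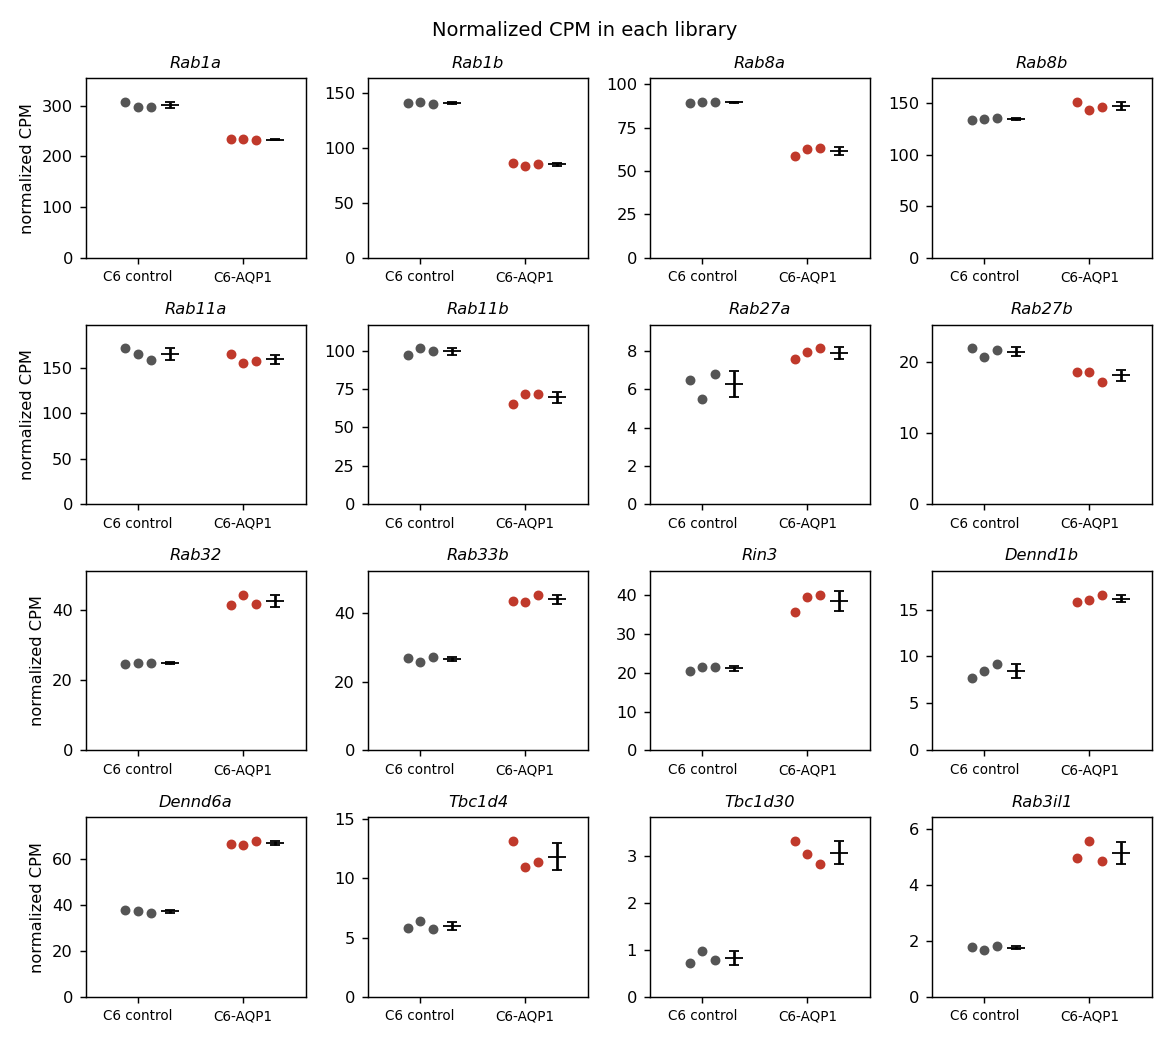
Normalized CPM (y axis, from 0) of 16 genes in the 3 C6 control and 3 C6-AQP1 libraries (x axis). Points are libraries, with the mean and SD of each group in black beside them. Rab11a is the 1 gene shown whose groups overlap, while Rab8a and Rab8b, and Rab27a and Rab27b, move in opposite directions.

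GEFs with a DENN or Vps9 domain rose with 1 exception, while of the 3 others 1 rose, 1 fell and 1 did not pass. Of 11 DENN domain GEFs, 10 rose and none fell, beside 40.8% and 40.7% of all genes. Dennd1b, a GEF of the recycling Rab35, had 15.8, 16.0 and 16.6 CPM in C6-AQP1 and 7.72, 8.51 and 9.23 in the controls, a log2 fold change of 0.91 (SE 0.07, edgeR adjusted p = 1.6e-10). Dennd6a, a GEF of Rab14, had 66.8, 66.2 and 68.1 CPM against 38.1, 37.5 and 36.7, a log2 fold change of 0.85 (SE 0.03, edgeR adjusted p = 1.5e-15). In both cases every C6-AQP1 library was far above every control. Dennd2a, a GEF of Rab9, and Dennd3, a GEF of Rab12, had log2 fold changes of 0.69 and 0.60. The Rab10 GEFs Dennd4a, Dennd4b and Dennd4c had 0.49, 0.32 and 0.50 on the same scale, and Dennd5a and Dennd5b, GEFs of Rab39, 0.24 and 0.42. Dennd6b was the exception, with -0.03 (edgeR adjusted p = 0.81).

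All 3 listed Vps9 domain GEFs, which activate Rab5 and its relatives, rose, where 40.8% of all genes did. Rin3 had 35.4, 39.5 and 40.05 CPM in C6-AQP1 and 20.4, 21.5 and 21.5 in the controls, a log2 fold change of 0.86 (SE 0.05, edgeR adjusted p = 6.3e-13). Rin2 had 127, 131 and 134 CPM against 78.0, 78.4 and 80.5, a log2 fold change of 0.73 (SE 0.03, edgeR adjusted p = 6.1e-16). Rabgef1, the Rab5 GEF Rabex-5, also rose, with a log2 fold change of 0.27 (SE 0.05). Of the 2 GEFs of Rab8, 1 passed. Rab3il1 (GRAB) had 4.97, 5.57 and 4.85 CPM in C6-AQP1 and 1.79, 1.68 and 1.80 in the controls, a log2 fold change of 1.55 (SE 0.14, edgeR adjusted p = 9e-10), and it was a DEG. Rab3ip (Rabin8) had -0.07 (edgeR adjusted p = 0.23) and did not pass. The 1 GEF that fell, named after its value was seen, was Rabif (Mss4), which binds exocytic Rabs without nucleotide. Its C6-AQP1 libraries had 6.86, 8.41 and 9.53 CPM against 11.3, 10.6 and 9.72, a narrow gap and a log2 fold change of -0.31 (SE 0.10, edgeR adjusted p = 0.0072). Its call was lost without both replicate 1 libraries.

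Among the GAPs, the largest change was that of Tbc1d30, a GAP of Rab8 at the cilium. It had 65, 126 and 120 counts in C6-AQP1 replicates 1, 2 and 3 and 16, 51 and 40 in the controls. That was 3.33, 3.05 and 2.84 against 0.718, 0.986 and 0.782 CPM, a log2 fold change of 1.84 (SE 0.18, edgeR adjusted p = 6.8e-09), and the only DEG of this role. Being so low in the controls, Tbc1d30 may have been listed through C6-AQP1 alone, a limit that favours large fold changes. Tbc1d4 (AS160), the GAP of Rab8a, Rab10 and Rab14 that controls GLUT4 traffic, had 13.2, 11.0 and 11.4 CPM in C6-AQP1 and 5.79, 6.38 and 5.75 in the controls, a log2 fold change of 0.97 (SE 0.09, edgeR adjusted p = 1.9e-09). Its relative Tbc1d1 had 236, 246 and 245 CPM against 236, 240.2 and 241 and did not pass. Tbc1d16, a GAP of Rab4, had 18.2, 18.7 and 16.6 CPM against 8.62, 9.53 and 10.4, a log2 fold change of 0.89 (SE 0.08, edgeR adjusted p = 4.7e-10). All C6-AQP1 libraries lay above all controls for Tbc1d30, Tbc1d4 and Tbc1d16, and overlapped the controls for Tbc1d1.

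Other GAPs changed less than 1.5-fold. Tbc1d14, a brake on autophagy that binds Rab11, had a log2 fold change of 0.44, and Rabgap1, a GAP of Rab6, of 0.30. Rab3gap2, the non-catalytic subunit of Rab3GAP, had 0.43, while the catalytic Rab3gap1 did not pass with 0.04. Of the 7 GAPs that fell, 3 act on Rab35: Tbc1d10a, Tbc1d10b and Tbc1d13 had log2 fold changes of -0.22, -0.22 and -0.14. The last of these was lost with DESeq2 (adjusted p = 0.0636), with library totals alone (0.131), without C6 control replicate 2 (0.0719) and without C6 control replicate 3 (0.185). Tbc1d7, the third subunit of the TSC complex, had -0.30, and Tbc1d19, Tbc1d31 and Tbc1d8b also fell, by 0.25, 0.15 and 0.07 on the log2 scale, the last losing its call with DESeq2, with library totals alone, and without C6 control replicate 1, C6 control replicate 2 or C6-AQP1 replicate 2.

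**Figure D5:**
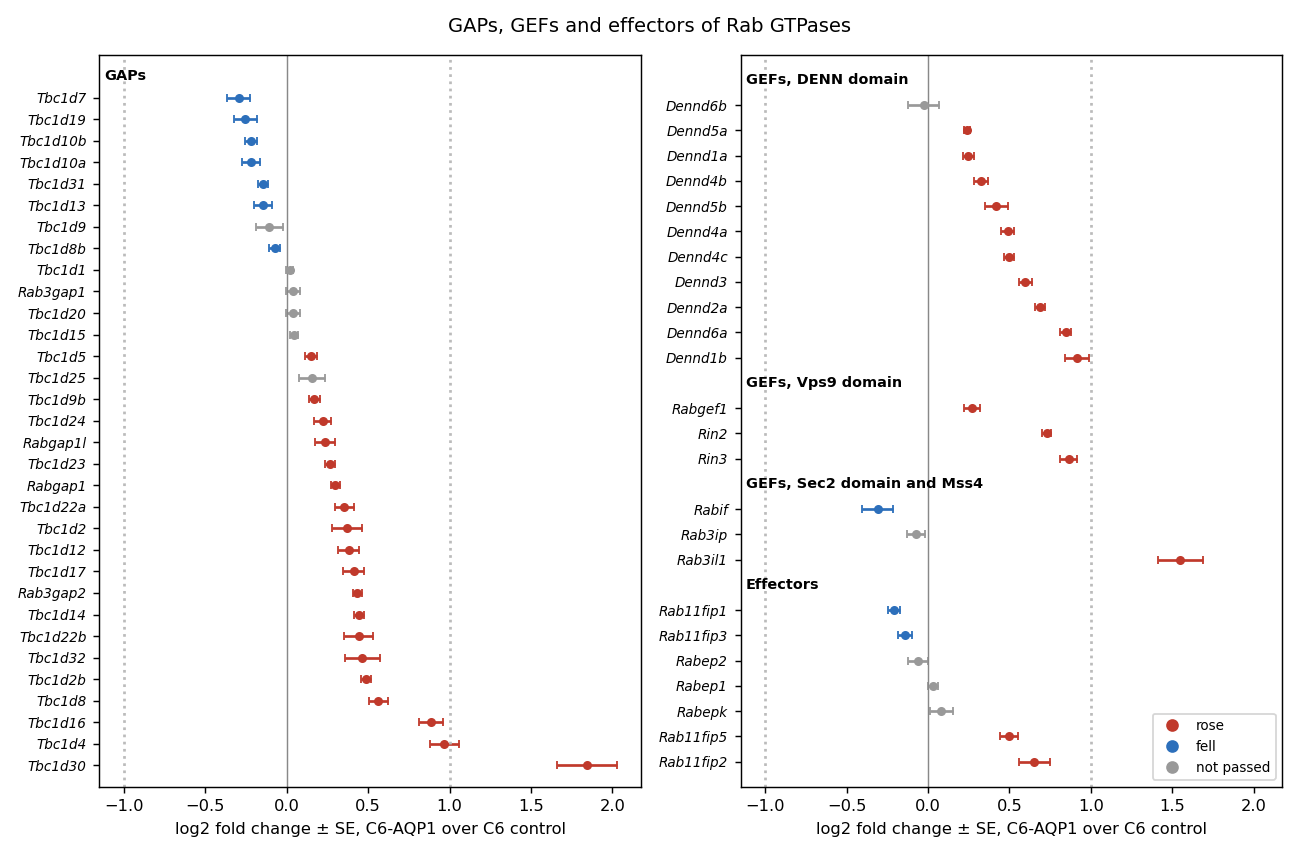
Log2 fold change with its standard error (x axis) of the 32 GAPs (left) and of the 17 GEFs and 7 effectors (right), with dotted lines at a 2-fold change. DENN and Vps9 domain GEFs lie right of 0 except for Dennd6b, and the GAPs run from -0.30 for Tbc1d7 to 1.84 for Tbc1d30.

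Each GTPase can be set beside the regulators known for it. Rab35 fell (log2 fold change -0.29) while its GEFs Dennd1a and Dennd1b rose (0.25 and 0.91) and its GAPs Tbc1d10a, Tbc1d10b and Tbc1d13 fell. Rab8a fell while its GEF Rab3il1 and its GAPs Tbc1d4, Tbc1d17 and Tbc1d30 rose (0.41 for Tbc1d17). The GEF Rab3ip and the GAP Tbc1d1 of Rab8a did not pass. The paralog Rab8b, with 60.0% or more of the Rab8 counts in every library, rose. Rab5a did not pass, while the GEFs Rin2, Rin3 and Rabgef1 and the GAP Usp6nl rose (0.96 for Usp6nl). Rab5a took at most 8.5% of the Rab5 counts in any library, and of its paralogs Rab5c fell and Rab5b rose. Rab10 rose by 0.16 beside rises of 0.32 to 0.50 for its 3 GEFs. Rab14 did not pass, and of its GEFs Dennd6a rose by 0.85 and Dennd6b did not pass. Of the GAPs listed for both Rab10 and Rab14, Tbc1d4 rose by 0.97 and Tbc1d1 did not pass. Rab4a fell and its GAP Tbc1d16 rose. In 36 listed pairs of a GTPase and a GEF, 14 held 2 genes that rose, 5 a GTPase that fell with a GEF that rose, 3 a pair that fell, and 14 at least 1 gene that did not pass. In 27 pairs with a GAP these counts were 4, 6, 3 and 12, and in the other 2 the GTPase rose and the GAP fell. Pairs share genes, so these counts carry no test.

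The effectors of Rab11 split. Rab11fip2, which links Rab11 to myosin Vb, had 9.47, 9.64 and 9.22 CPM in C6-AQP1 and 6.46, 6.42 and 5.28 in the controls, a log2 fold change of 0.65 (SE 0.10, edgeR adjusted p = 2.1e-06). Rab11fip1, which recycles integrins, had 42.7, 45.0 and 43.3 CPM against 51.2, 50.5 and 50.2, a log2 fold change of -0.21 (SE 0.04, edgeR adjusted p = 1.8e-05). Rab11fip5 had a log2 fold change of 0.50, and Rab11fip3, of cytokinesis, of -0.14, a call lost with library totals alone (edgeR adjusted p = 0.0613). Thus 2 of these 4 rose and 2 fell without overlap between groups. Over all genes 40.8% rose, 40.7% fell and 82.5% showed no overlap. The Rab5 effectors Rabep1 and Rabep2 and the Rab9 effector Rabepk did not pass, with 0.03, -0.06 and 0.08.

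The rest of the pathway, listed by role and not by how it moved, held 112 measured genes, of which 67 rose, 26 fell and 19 did not pass, with a median log2 fold change of 0.22. That was 59.8% rising and 23.2% falling, where 40.8% and 40.7% of all genes did, and the 83.0% that passed lay near the 81.5% of all genes. DEGs were 3 of the 112, all higher in C6-AQP1, where 14.1% of all genes were DEGs. A further list of 39 genes held GEFs, subunits of GEF complexes and DENN-related proteins, not all of them known as active Rab GEFs. Of these, 23 rose and 10 fell, or 59.0% and 25.6% beside 40.8% and 40.7% of all genes. Among the 10, 8 were subunits of TRAPP, the GEF complex of Rab1. Across all 14 TRAPP subunits listed, 8 fell and 4 rose, or 57.1% and 28.6%, where 40.7% of all genes fell and 40.8% rose. Trappc1 and Trappc4 of the core fell by 0.75 and 0.69 on the log2 scale, and Trappc10, a subunit of TRAPPII, rose by 0.65. Flcn, Fnip1 and Fnip2, DENN-related proteins of the lysosome that were counted in this list of 39, rose by 0.73, 0.63 and 0.82. Of 6 further GAPs 5 rose, or 83.3% beside 40.8% of all genes, and none fell.

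Of 47 further effectors and tethers, 33 rose and 7 fell, or 70.2% and 14.9% where 40.8% and 40.7% of all genes did, and 85.1% passed beside 81.5% of all genes. Exph5, an effector of Rab27, was the 1 DEG among them and had 28.9, 30.8 and 28.1 CPM in C6-AQP1 and 5.38, 5.41 and 6.20 in the controls, a log2 fold change of 2.36 (SE 0.07, edgeR adjusted p = 6.4e-18). Micall1 and Micall2, effectors of Rab8, Rab13 and Rab35, had log2 fold changes of 0.61 and 0.81, and Golgb1, the Golgi tether giantin, of 0.85. The genes listed for protein prenylation and for the recycling of Rabs through the cytosol stayed within 1.5-fold. Some of them, such as Fnta, Fntb and Pggt1b, act mainly on proteins other than Rabs. Of the 13 genes listed 4 rose and 5 fell, or 30.8% and 38.5%, with a median of 0.00. Rabggtb, the catalytic subunit of Rab geranylgeranyl transferase, had -0.52, and Gdi2, which extracts Rabs from membranes, had -0.11.

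Promoter windows from RefSeq were matched to 89 of the 104 genes and searched on both strands for the letters of 4 motifs, of which 3 belong to factors named in the study. TTGTTT, the FOXO4 motif, was in a window of 12 of 89 genes, 13.5%, beside 13.8% of 8636 listed genes and 20.6% of all 33469 windows. It was in 7 of 50 genes that rose, in 0 of 21 that fell and in 5 of 18 that did not pass. GGGAGG was in 46 of 89, 51.7%, beside 51.4% of the listed genes and 39.8% of all windows, and in 28 of the 50 that rose and 11 of the 21 that fell. TTTGGCGC, an E2F motif, was in 0 of 89, beside 0.996% of the listed genes. The E-box CACGTG, added as a motif of lysosomal genes, was in 11 of 89, 12.4%, beside 10.0% of the listed genes and 6.42% of all windows. None of these motifs contains another. A match describes the letters and is not a binding site. Windows of a GTPase and a GAP that rose and hold TTGTTT, in capitals on either strand, are shown as examples, chosen after their values were seen.
Rab33b, chr2:137678728-137679027, plus strand: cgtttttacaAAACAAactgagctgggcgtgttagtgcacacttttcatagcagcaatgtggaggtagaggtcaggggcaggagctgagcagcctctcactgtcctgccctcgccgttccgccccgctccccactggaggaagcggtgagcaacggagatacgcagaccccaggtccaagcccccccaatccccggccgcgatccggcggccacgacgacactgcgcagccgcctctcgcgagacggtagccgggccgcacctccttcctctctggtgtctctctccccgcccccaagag
Tbc1d4, chr15:84848644-84848943, minus strand: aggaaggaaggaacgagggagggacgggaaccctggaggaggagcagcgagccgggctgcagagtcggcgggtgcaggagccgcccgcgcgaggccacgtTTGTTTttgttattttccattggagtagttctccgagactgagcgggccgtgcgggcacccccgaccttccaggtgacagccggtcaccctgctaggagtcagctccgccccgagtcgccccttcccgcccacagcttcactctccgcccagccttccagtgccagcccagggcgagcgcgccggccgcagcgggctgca

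The match in Rab33b lies near the upstream end of the window and the match in Tbc1d4 further in. Among the 89 genes with a window, the share of genes with TTGTTT in at least 1 window was close to that among all listed genes.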

How the data were processed

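RNA-seq was done on 3 C6-AQP1 and 3 C6 control libraries. The authors trimmed reads with Trimmomatic (0.36), aligned them to rn6 with STAR (2.5.1b) and deposited RSEM (1.2.29) expected counts per gene, of which 12121 were listed in every library. The sources used here do not name the gene models counted. The labels describe single reads and the methods paired-end reads. RSEM shares reads that match several genes between them, so values of close paralogs are uncertain, and 7 of the 104 genes had counts that were not whole (tolerance 0.005), among them Rabif, Rab18, Rab5a, Rab24 and Rab3a.

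Expected counts were rounded, scaled by TMM and tested with edgeR (4.0.16, R 4.3.3) by a robust quasi-likelihood fit over all 12121 genes in the 6 libraries without covariates, with Benjamini-Hochberg adjustment. The common biological coefficient of variation was 2.97%. Normalized CPM are the rounded counts scaled to a TMM-adjusted total of 1000000. Every gene listed entered the test. The code was tested on simulated data.

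Alternatives were DESeq2 (1.42.0), limma-voom (3.58.1), other scalings, a filter of 10 counts in 3 libraries, a replicate block and leaving out libraries. The members and the lists were chosen with earlier results of these data known. Named were all DEGs, the 3 largest called changes of each role and compartment, GTPases with their listed regulators, and paralogs that moved apart. Other members are named to complete a family or list. Spans and promoter windows came from RefSeq for GRCr8, a later build than the one used for the counts, matched by gene identifier or symbol, and strand-specific counting is not stated. No protein sequence was used here.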

Additional observations from a re-analysis of the deposited data

How the results depend on the processing

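Of the 83 genes called among the 104, 76 kept call and direction under all 13 alternatives (56 rose and 20 fell), and no named gene reversed. With the replicate number as a block 58 of the 104 genes rose, the addition being Rab38 (edgeR adjusted p = 0.0476), and 26 fell. Over all genes 5006 rose and 4976 fell with the block. The block changed no other call among the named genes. Deviations of libraries with the same number correlated by 0.13, -0.01 and 0.07, so the numbers were not taken to pair the libraries. Library totals alone moved the median of all genes by 0.05 on the log2 scale, which lost 4 calls among the 104 genes and added 8, among them Rab14, Tbc1d1 and Rabep1. With that scaling 1 effector fell in place of 2, 1 recycling endosome Rab rose in place of 0, and 5 further pathway genes were DEGs higher in C6-AQP1 in place of 3. Without both replicate 1 libraries 0 GEFs fell in place of 1. Leaving out single libraries kept 81 or 82 of the 83 calls. Genes near the lower limit of the list, such as Rab3b and Rab15, have few counts. The listed genes were those above a mean of 1 TPM in a group, so lower Rabs were not analysed here. A gene low in 1 group, such as Rab3b or Tbc1d30, may have been listed through the other group alone. Such a limit favours large fold changes among the lowest genes, and the TPM of each group was not checked. The causes of these shifts were not tested.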
